A study of Homo sapiens with 6 samples.

Results

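The 9 genes described here encode the enzymes that make, recycle, and remove deoxynucleoside triphosphates (dNTPs), the building blocks of DNA. They are the ribonucleotide reductase (RNR) subunits RRM1, RRM2, and RRM2B, the thymidylate enzymes TYMS and DUT, the deoxynucleoside kinases TK1, TK2, and DCK, and the dNTP hydrolase SAMHD1. They were picked by gene symbol as enzymes of 1 pathway, with earlier results of these data known, and all 9 were found among the 12308 different rows of the expression table and passed the filter on low values, which asked for 1 or more in 3 or more libraries. RNA-seq of total RNA was available for 3 cultures of OVCAR5, the parental ovarian cancer cell line, and 3 cultures of OVCAR5R, a derivative resistant to prexasertib (Prex), an inhibitor of the checkpoint kinase CHK1. OVCAR5R was obtained over 3 to 4 months in Prex raised stepwise to 3 µM and was kept at 2 µM. Cells then went without Prex for 4 days or more, so neither group was on the drug when RNA was taken. OVCAR5R is 1 resistant line, and its 3 libraries are cultures of that line and not separate selections.

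RNR converts ribonucleoside diphosphates to deoxyribonucleoside diphosphates and is the rate-limiting step of de novo dNTP synthesis. It is made of the large catalytic subunit RRM1 and a small subunit, which is RRM2 in S phase and RRM2B outside S phase. TYMS makes thymidylate from deoxyuridylate, the salvage kinases phosphorylate deoxynucleosides taken up from outside, and SAMHD1 degrades dNTPs. The study treated these lines with hydroxyurea, which inhibits RNR, and with gemcitabine, a deoxycytidine analog that DCK must phosphorylate before it can act on RNR and DNA.

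Estimated reads on the listed genes ranged from 35.8 to 55.1 per library in units of 1e6, with each OVCAR5R library deeper than each OVCAR5 library, and a member gene rested on 566 to 29409 estimated reads in a library. One library stood apart. OVCAR5 replicate 2 had a KRT19 value of 1341, against 3.09 to 10.7 in the other libraries, and an EPCAM value of 597, against 11.9 to 31.7. The summed value of the 6 listed epithelial markers of 8 was 17308 in it and 2388 to 4816 elsewhere, with CDH1 and CLDN3 not listed. Across genes its Pearson r with the other libraries was 0.850 to 0.898, against 0.921 to 0.963 among the other libraries. Of 6 ovarian carcinoma markers, 3 were listed, and MUC16, ESR1, and SOX17 were not. PAX8 was at 4.38 to 11.4. MSLN was at 6.11 in OVCAR5 replicate 2 and at 0.24 to 1.60 elsewhere. WT1, at 0.029 to 0.73, did not pass the filter on low values. Of 12 stromal, endothelial, and immune markers, 3 were listed, and their sum was 49.5 to 82.8. The part of these marker differences in the results was not tested, and the differences between the cell lines are also given without OVCAR5 replicate 2 for the 9 enzymes, their ratios, and the gene lists.

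None of the 9 enzymes differed between the cell lines at an adjusted p under 0.05 (limma on log2(value + 1), adjusted over 11766 genes), where 0.119% of all genes tested did. Mean levels were higher in OVCAR5R for 7 enzymes and lower for 2, with a median log2 fold change of 0.25 against -0.01 over all genes. At an unadjusted p under 0.05, 0 enzymes were higher (4.14% of all genes) and 1, TK2, was lower (6.25% of all genes). TK2 was also the sole enzyme whose OVCAR5R libraries all lay below all OVCAR5 libraries, which 8.18% of all genes did, and 0 enzymes lay wholly above, which 8.4% did. Without OVCAR5 replicate 2, 0 enzymes were called (0.246% of all genes), the median was 0.20, TK1 lay wholly above (13.8% of all genes), and TK2 wholly below (13.7%). Weighted voom on the estimated reads called 0 of all genes tested, so its 0 of the 9 says nothing about these enzymes in particular. In bulk RNA, more cells in S phase and more transcript per cell cannot be told apart. With 3 libraries a side, an exact permutation test of a single gene cannot give a p under 0.1.

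**Figure D1:**
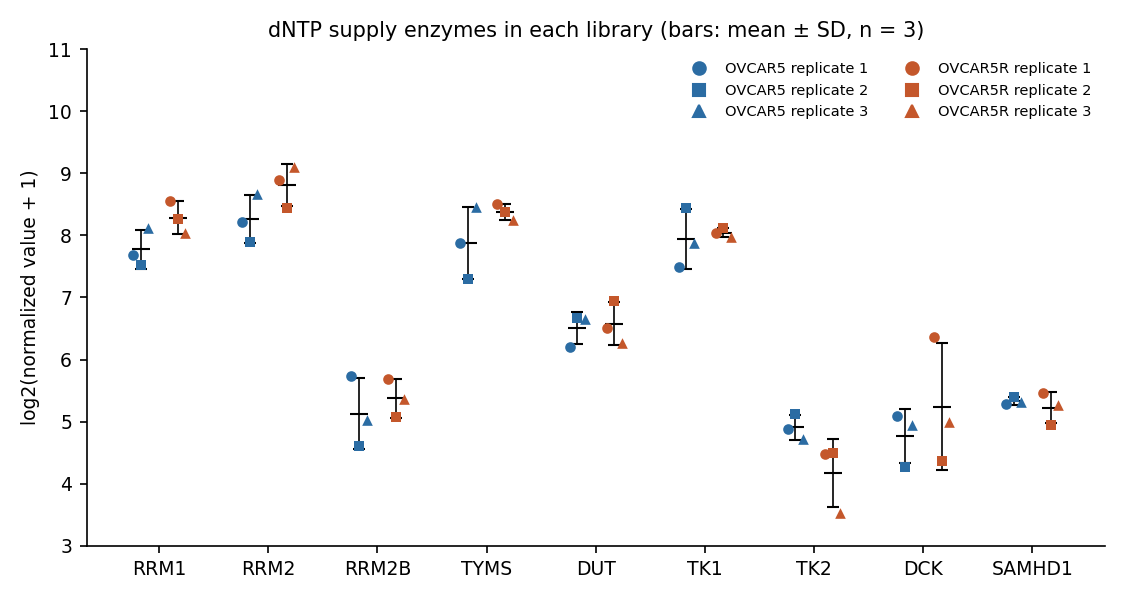
Level of each enzyme, as log2(normalized value + 1), in the 3 OVCAR5 (blue) and 3 OVCAR5R (orange) libraries, with a marker shape per replicate and bars for the mean ± SD of each cell line. TK2 is the enzyme whose cell lines do not overlap, and DCK has a single high library, OVCAR5R replicate 1.

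The question for the RNR subunits was whether the resistant line carried more transcript of the enzyme. RRM1 (chr11:4094707-4138876, plus strand, GENCODE release 29 on GRCh38) had normalized values of 205, 183, and 279 in OVCAR5 and 375, 307, and 261 in OVCAR5R, in replicate order. The highest OVCAR5 library lay above the lowest OVCAR5R library, so the cell lines overlapped. Means were 222 ± 50.1 (OVCAR5) and 314 ± 57.7 (OVCAR5R), each ± SD over n = 3. RRM1 was thus at 0.51 on the log2 scale (standard error 0.24, 95% interval -0.05 to 1.06, limma adjusted p = 0.505), and the exact permutation test gave p = 0.2. Without OVCAR5 replicate 2 the log2 fold change of RRM1 was 0.38.

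RRM2, the S phase small subunit (chr2:10120698-10131419, plus strand), carries the radical that hydroxyurea quenches. It had values of 296, 237, and 408 in OVCAR5 and 477, 347, and 548 in OVCAR5R. OVCAR5 replicate 3 lay above OVCAR5R replicate 2, and the other OVCAR5 libraries lay below every OVCAR5R library. The log2 fold change of RRM2 was 0.55 (standard error 0.27, 95% interval -0.08 to 1.18, limma adjusted p = 0.524), with an exact permutation p of 0.2, and it was 0.37 without OVCAR5 replicate 2.

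RRM2B, the small subunit used for repair and mitochondrial DNA outside S phase (chr8:102204502-102239118, minus strand), had values of 52.3, 23.5, and 31.7 in OVCAR5 and 50.6, 32.6, and 40.2 in OVCAR5R. The cell lines overlapped widely, with the highest value of all in OVCAR5 replicate 1. RRM2B was at a log2 fold change of 0.25 (standard error 0.32, limma adjusted p = 0.825, exact permutation p = 0.6) and -0.01 without OVCAR5 replicate 2, the library with the lowest value. On values per kb of transcript, the mean of RRM2 was 12.6 times that of RRM2B in OVCAR5 and 15.99 times in OVCAR5R.

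TYMS (chr18:657604-673578, plus strand), the target of fluoropyrimidines, had values of 235, 156, and 351 in OVCAR5 and 362, 331, and 301 in OVCAR5R. The OVCAR5R libraries lay close together, at 332 ± 30.4 (SD, n = 3), and the OVCAR5 libraries were spread more widely, at 247 ± 98.2, with the highest of them among the OVCAR5R values. For TYMS the log2 fold change was 0.50 (standard error 0.30, 95% interval -0.19 to 1.18, limma adjusted p = 0.601, exact permutation p = 0.3). It was 0.20 without OVCAR5 replicate 2, which held the lowest TYMS value. ENOSF1, which lies on the opposite strand and shares exon bases with TYMS, had values of 46.0, 66.6, and 58.0 in OVCAR5 and 43.8, 46.4, and 40.05 in OVCAR5R, and whether counting used strand is not given in the sources used here.

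DUT (chr15:48331011-48343373, plus strand), the dUTPase that keeps uracil out of DNA and supplies deoxyuridylate to TYMS, had values of 72.6, 100.4, and 99.6 in OVCAR5 and 90.3, 122, and 76.0 in OVCAR5R. The lowest and the second-lowest libraries came from different cell lines, and the remaining OVCAR5 values lay inside the OVCAR5R range. The log2 fold change was 0.07 (standard error 0.25, 95% interval -0.50 to 0.64, limma adjusted p = 0.948), the smallest in size of the 9. It was 0.15 without OVCAR5 replicate 2. Annotated pseudogenes carry the names of DUT (8), RRM2 (3), and TYMS (2), none of them listed in the table, so reads that fit both copies are uncertain.

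TK1, the cytosolic thymidine kinase of S phase (chr17:78174075-78187233, minus strand), had values of 180, 348, and 233 in OVCAR5 and 261, 278, and 251 in OVCAR5R. OVCAR5 replicate 2 was the highest of the 6 libraries, and the other OVCAR5 libraries were the lowest. With all libraries TK1 was at a log2 fold change of 0.11 (standard error 0.26, limma adjusted p = 0.920, exact permutation p = 0.7). Without OVCAR5 replicate 2, the library with the high epithelial markers, it was 0.36, and every OVCAR5R library lay above both OVCAR5 libraries.

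TK2, the mitochondrial thymidine kinase (chr16:66508003-66552544, minus strand), was the lowest of the 9 per kb in both cell lines. Its values were 28.3, 33.7, and 25.4 in OVCAR5 and 21.4, 21.5, and 10.6 in OVCAR5R. Each OVCAR5R library lay below each OVCAR5 library, with OVCAR5R replicate 3 well under the others. Means were 29.2 ± 4.19 (OVCAR5) and 17.8 ± 6.27 (OVCAR5R), each ± SD over n = 3, a log2 fold change of -0.74 (standard error 0.31, 95% interval -1.44 to -0.03). This did not pass the threshold over all genes (limma adjusted p = 0.458), and the exact permutation p was 0.1, the smallest it can give. TK2 was at -0.63 without OVCAR5 replicate 2 and -0.42 without OVCAR5R replicate 3.

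DCK, the kinase that activates deoxycytidine and gemcitabine (chr4:70992538-71030914, plus strand), had values of 33.0, 18.2, and 29.6 in OVCAR5 and 81.2, 19.6, and 30.8 in OVCAR5R. OVCAR5R replicate 1 was the outlying library, and the other OVCAR5R libraries lay within the OVCAR5 range. The log2 fold change of 0.48 (standard error 0.49, limma adjusted p = 0.772, exact permutation p = 0.5) therefore rested on 1 library. It was -0.08 without OVCAR5R replicate 1, 0.91 without OVCAR5R replicate 2, and 0.23 without OVCAR5 replicate 2.

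SAMHD1, which hydrolyzes dNTPs and is mutated in some leukemias (chr20:36889773-36951901, minus strand), was the steadiest of the 9 in OVCAR5. Its values were 37.96, 41.1, and 38.8 in OVCAR5 and 42.8, 29.9, and 37.7 in OVCAR5R. The OVCAR5 libraries lay inside the OVCAR5R range. SAMHD1 was at a log2 fold change of -0.10 (standard error 0.21, 95% interval -0.59 to 0.38, limma adjusted p = 0.897, exact permutation p = 0.7), and -0.07 without OVCAR5 replicate 2.

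**Figure D2:**
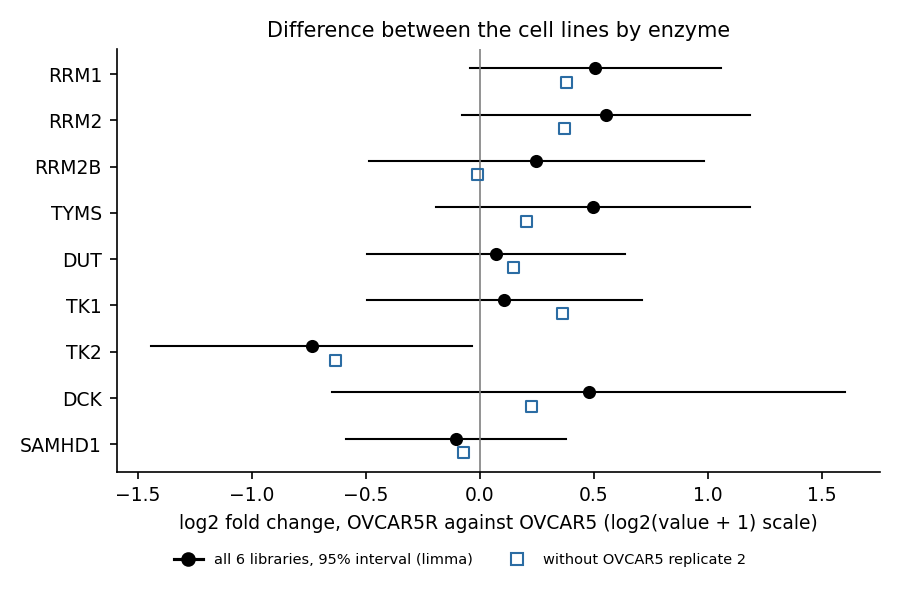
Log2 fold change of OVCAR5R against OVCAR5 for each enzyme from all 6 libraries (black points, with limma's 95% intervals) and without OVCAR5 replicate 2 (open squares). The interval of TK2, -1.44 to -0.03, is the sole one that leaves out 0, and RRM2B moves from 0.25 to -0.01 without that library.

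OVCAR5 replicate 3 had the highest OVCAR5 value of RRM1, RRM2, and TYMS alike, and these 3 genes overlapped between the cell lines through it. This library was singled out here with the values in view, so the separation of these 3 genes without it follows from that choice. Without that library, every OVCAR5R library lay above both remaining OVCAR5 libraries for RRM1, RRM2, and TYMS, as 16.8% of all genes then did, and below for TK2, as 16.4% did. The log2 fold changes were then 0.68 for RRM1, 0.76 for RRM2, and 0.79 for TYMS, with limma adjusted p of 0.275, 0.281, and 0.248. The 3 genes also followed each other across the 6 libraries, with Pearson r of 0.90 for RRM1 with TYMS, 0.81 for RRM2 with TYMS, and 0.73 for RRM1 with RRM2. Over all 6 libraries TK1, the other S phase enzyme, did not follow them, with r of -0.03 with RRM1, -0.22 with RRM2, and -0.35 with TYMS. In OVCAR5 replicate 2, TK1 had its highest value of the 6 libraries, and RRM1, RRM2, and TYMS had their lowest. TK1 was at 0.51 there relative to the OVCAR5 mean, and RRM1, RRM2, and TYMS were at -0.26, -0.37, and -0.59. The coefficients without OVCAR5 replicate 2 were not computed. RRM2 ran opposite to TK2 (r = -0.85). These coefficients describe 6 libraries of 2 cell lines that differ in depth.

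**Figure D3:**
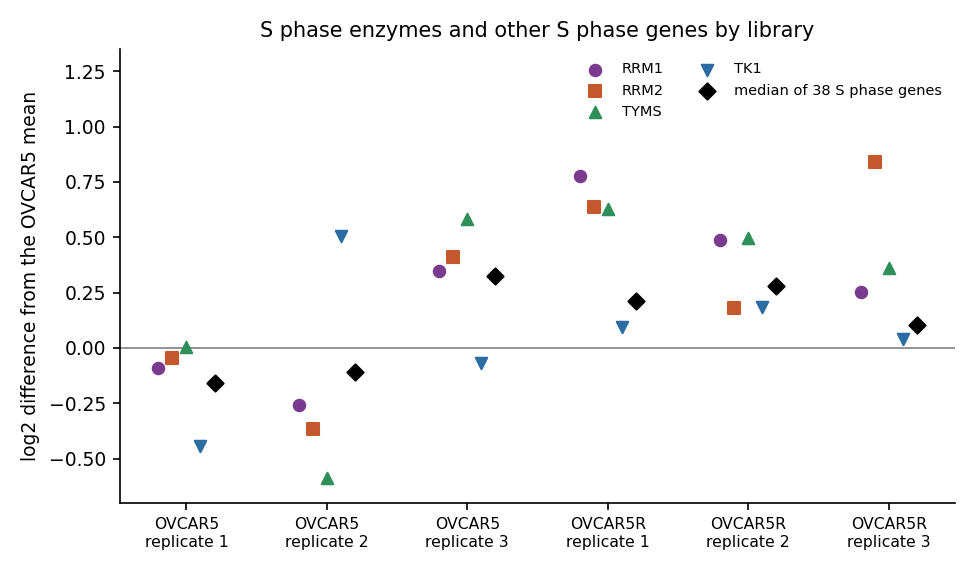
Log2 difference from the OVCAR5 mean of RRM1, RRM2, TYMS, and TK1, and the median of 38 other S phase genes, in each library (markers, no error shown). RRM1, RRM2, and TYMS are low in OVCAR5 replicate 2, where TK1 is high, and OVCAR5 replicate 3 lies above its cell line's mean for all but TK1.

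RRM1, RRM2, TYMS, and TK1 are textbook targets of cell cycle transcription. E2F sites or CCAAT boxes, which NF-Y binds, are described in many promoters of such genes, though not both in each. RefSeq promoter windows of 300 bases (250 before and 50 after the start site, GRCh38.p14) were found for 8 of the 9 genes, RRM2B being unmatched. CCAAT, searched on both strands, occurred in 4 of the 8 (RRM1, RRM2, TK1, and SAMHD1) and in 34.6% of all 35116 windows. Here and for the other words, a gene was counted if any of its windows matched, while the percentages are of single windows. The percentages of genes were not computed. The E2F words TTTNNCGC and GGCGGGAA, which can overlap each other, occurred in 3 (TYMS, DUT, and DCK; 6.89% of all windows) and in 2 (RRM1 and DUT; 3.16%), and the CHR word TTTGAA in 2 (RRM1 and DUT; 15.2%). The sites of the genes that moved together, and of TK1, which did not over all 6 libraries, are shown from the start of each gene's strand. The matched letters are in capitals. Of RRM2 the 3 CCAAT matches of 1 start site are shown. Left out are a match in the window of another RRM2 start site and the CHR match of RRM1, 199 bases before its start site. In the sites shown, the 10 bases after these 3 boxes of RRM2 are nearly the same, and TK1 has CCAAT matches too, on the opposite strand (ATTGG).
RRM2, chr2:10122606-10122630, before the start site: caaggcgcagCCAATgggaagggtc
RRM2, chr2:10122636-10122660, 93 bases before: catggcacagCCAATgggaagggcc
RRM2, chr2:10122663-10122687, 66 bases before: ggcaccaaagCCAATgggaagggcc
RRM1, chr11:4094452-4094479, 223 bases before: aagaaaaacgTTCCCGCCggttaggttt
RRM1, chr11:4094647-4094671, 28 bases before: atgtccatatCCAATggggcccatg
TYMS, chr18:657604-657631, 39 bases before: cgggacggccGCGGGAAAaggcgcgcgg
TK1, chr17:78187115-78187139, minus strand, 77 bases before: ccgggcgctgATTGGccccatggcg
TK1, chr17:78187084-78187108, minus strand, 46 bases before: ccggctcgtgATTGGccagcacgcc
A match describes the letters of the window and was not tested for binding. The words did not sort the genes by their pattern over the 6 libraries, since CCAAT was in both RRM2 and TK1 and not in TYMS.

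The genes most like RRM1 over the 6 libraries, among 9748 genes with a mean value of at least 10, were TUBB6, STRAP, UTP6, PRMT5, and PABPC4 (Pearson r of 0.995 to 0.986). Those most like RRM2 were DCLRE1B, GFM1, ARF3, and SLC25A20 (r of 0.995 to 0.989). Those most like TYMS were PFAS, a purine synthesis enzyme, TUBB, MFN2, FAM216A, and CAVIN1 (r of 0.998 to 0.994). None of the genes named was among the 38 S phase genes listed below. The coefficients are the highest of 9748 over 6 libraries and are given as a description.

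Per kb of transcript, the order in OVCAR5 was TK1 (156), TYMS (149), RRM2 (91.5), RRM1 (72.2), DUT (42.3), DCK (9.92), SAMHD1 (7.41), RRM2B (7.26), and TK2 (5.70). Of the neighbours in that order, RRM1 and DUT, and DUT and DCK, did not overlap over the 3 libraries, and all others did. In OVCAR5R the order was TYMS (199), TK1 (162), RRM2 (133), RRM1 (102), DUT (44.8), DCK (16.2), RRM2B (8.34), SAMHD1 (6.95), and TK2 (3.48). There TYMS at 181 to 218 did not overlap TK1 at 154 to 171, nor RRM1 DUT, DUT DCK, or SAMHD1 TK2. The 5 enzymes at the head of the order were thus the same in both cell lines, and the changes of place lay between neighbours that overlapped in OVCAR5.

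Ratios within a library do not depend on how the library was scaled, and 6 were compared. The log2 ratio of RRM2, which feeds the dNTP pool, over SAMHD1, which drains it, was 2.93, 2.50, and 3.36 in OVCAR5 and 3.45, 3.49, and 3.83 in OVCAR5R. The lowest OVCAR5R ratio exceeded the highest OVCAR5 ratio, and the means differed by 0.66. The exact permutation p was 0.1, the smallest possible, and 0.6 adjusted over the 6 ratios, and the difference was 0.44 without OVCAR5 replicate 2. RRM2 over RRM1, the balance of the 2 subunits of the S phase enzyme, was at a difference of 0.05 (exact permutation p = 1) and at -0.0076 without OVCAR5 replicate 2. The other ratios overlapped too, with differences of -0.31 for RRM2B over RRM2, -0.43 for DUT over TYMS, 0.39 for TYMS over TK1, and 0.37 for DCK over TK1 (exact permutation p of 0.5, 0.5, 0.9, and 0.8). Without OVCAR5 replicate 2 these were -0.38, -0.05, -0.16, and -0.13, so that TYMS over TK1 and DCK over TK1 turned in direction. TYMS over TK1 set OVCAR5 replicate 2 apart, at -1.16 against 0.25 to 0.59 in the other libraries.

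TK2 was low where most tested genes within 5 Mb were low, and DCK was high in a library where a shorter run of genes around it was high. TK2 had 79 tested genes within 5 Mb, of which 75 had a lower mean in OVCAR5R and 4 a higher one, with a median log2 fold change of -0.49 beside -0.74 for TK2. In OVCAR5R replicates 1, 2, and 3 the neighbours' median was -0.29, -0.18, and -1.0 relative to the OVCAR5 mean, and TK2 was at -0.42, -0.42, and -1.38. The library with the lowest TK2 was thus the one with the lowest neighbours. In OVCAR5 the neighbours' median was -0.33, 0.12, and 0.24, with TK2 at -0.03, 0.21, and -0.18.

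Over the whole 5 Mb to each side, the 25 tested neighbours of DCK did not follow it, with a median log2 fold change of -0.02 (12 higher, 13 lower) and a median of -0.03 in OVCAR5R replicate 1, where DCK was at 1.60. DCK lay, however, within a run of 8 consecutive tested genes that were all at least 1 log2 unit above the OVCAR5 mean in OVCAR5R replicate 1, as 2.47% of all genes tested were. The run was found after the values were seen. It reached from UTP3, 0.30 Mb before the DCK start, over RUFY3, GRSF1, MOB1B, DCK, SLC4A4, and COX18 to ANKRD17, 2.27 Mb after it. The 7 genes other than DCK were higher by 1.03 to 1.97 in that library, with a median of 1.48, and DCK by 1.60. In OVCAR5 replicate 1 the median of the 7 was -0.04, but SLC4A4, a low gene with values of 0.26 to 5.67, was at 1.03 there too. The same 7 genes had a median of -0.40 in OVCAR5R replicate 2 and 0.11 in OVCAR5R replicate 3, where DCK was at -0.40 and 0.23. GRSF1, an RNA-binding protein gene of mitochondria, had 97.9, 96.7, and 114 in OVCAR5 and 316, 84.1, and 111 in OVCAR5R. The next tested genes were not high in OVCAR5R replicate 1, YTHDC1 on one side being at -0.02 and the chemokine gene CXCL8 on the other at -1.97. Farther out the values in that library were mixed, from -2.71 for EREG to 0.89 for UBA6. MOB1B shares exon bases with DCK on the same strand, so reads of these 2 genes could be split either way. None of the 8 had a limma adjusted p under 0.05, where 0.119% of all genes did. No DNA was measured, and the part of copy number in these shifts was not tested.

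**Figure D4:**
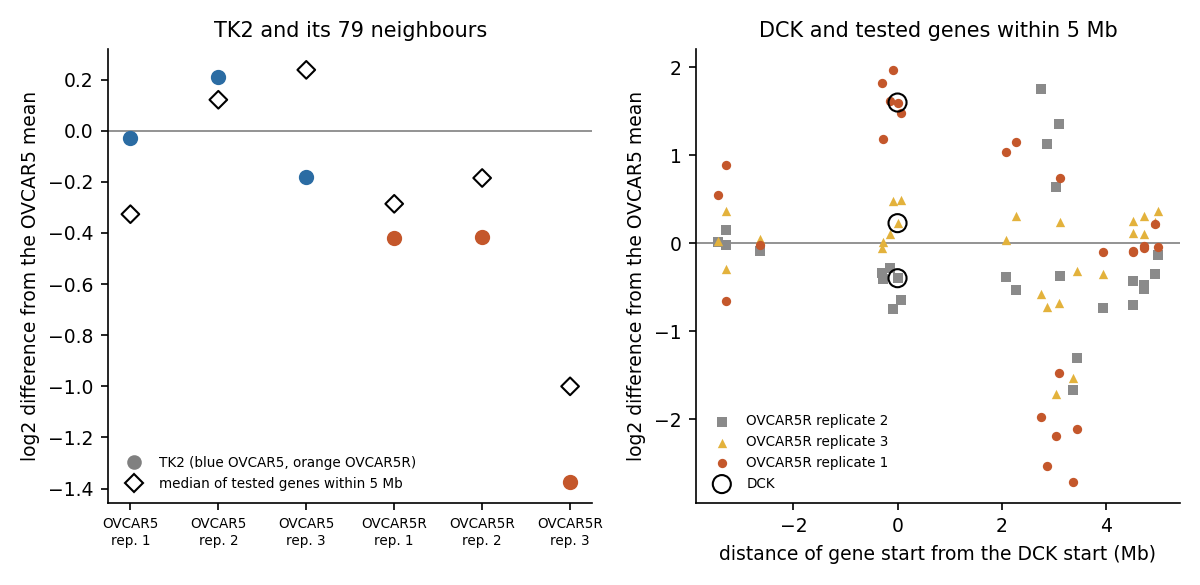
Left, TK2 (filled circles) and the median of the 79 tested genes within 5 Mb (open diamonds) in each library. Right, each tested gene within 5 Mb of DCK by its distance from the DCK start in Mb, in the 3 OVCAR5R libraries, DCK circled. All y axes are log2 differences from the OVCAR5 mean. TK2 and its neighbours are lowest in OVCAR5R replicate 3, at -1.38 and -1.0, and 8 genes around DCK lie above 1 in OVCAR5R replicate 1.

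For the other enzymes, the neighbours' medians were between -0.03 and 0.09 (RRM1, RRM2, TYMS, DUT, TK1, and SAMHD1, with 16 to 149 neighbours each). RRM2B was the exception, with 33 neighbours at a median of 0.25, 23 of them higher, beside 0.25 for RRM2B. By library the 2 did not run alike in OVCAR5R. In replicates 1, 2, and 3 the neighbours' median was 0.16, 0.37, and 0.09 relative to the OVCAR5 mean, and RRM2B was at 0.56, -0.06, and 0.24. In OVCAR5 the neighbours' median was 0.25, -0.39, and 0.06, with RRM2B at 0.61, -0.51, and -0.10.

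Around the 9 enzymes, a list of 61 other genes of dNTP metabolism was examined, of which 56 were tested. At an adjusted p under 0.05 (limma) 0 were called, beside 0.119% of all genes, and their smallest adjusted p was 0.356. At an unadjusted p under 0.05, 5 were higher (MTHFD1, TXNRD1, TXNRD2, CTPS1, and SLC29A1) and 0 lower, with 4.14% and 6.25% of all genes as background. Mean levels were higher for 29 and lower for 27, with a median log2 fold change of 0.01. The highest was CTPS1, which makes CTP, with values of 74.2, 56.5, and 146 in OVCAR5 and 198, 164, and 134 in OVCAR5R (0.94). It was followed by TXNRD2, the mitochondrial thioredoxin reductase (0.91), and SLC29A1, the equilibrative nucleoside transporter (0.81). TXNRD2 and SLC29A1 were among 6 of the 56 genes whose OVCAR5R libraries all lay above OVCAR5 (8.4% of all genes), and TXNRD1, the cytosolic thioredoxin reductase that keeps an RNR electron donor reduced, overlapped at 0.75. The lowest were TYMP, thymidine phosphorylase, with 10.1, 30.8, and 7.43 in OVCAR5 and 1.75, 3.86, and 10.1 in OVCAR5R (-1.44), CDA (-1.04), and GLRX, glutaredoxin (-0.67). TYMP and CDA had their highest value in OVCAR5 replicate 2. Without that library 0 of the 56 were called (0.246% of all genes), and 34 means were higher and 22 lower, with a median of 0.10. At an unadjusted p under 0.05, 5 were then higher and 1 lower, beside 4.32% and 6.52% of all genes. The 5 were MTHFD1, TXNRD2, NME2, NT5C3B, and SLC29A3, and the lower one was AK4. TXNRD1, CTPS1, and SLC29A1 were no longer among them. The 6 extremes were then at 0.65 for CTPS1, 0.66 for TXNRD2, 0.59 for SLC29A1, -0.87 for TYMP, -0.45 for CDA, and -0.38 for GLRX.

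**Figure D5:**
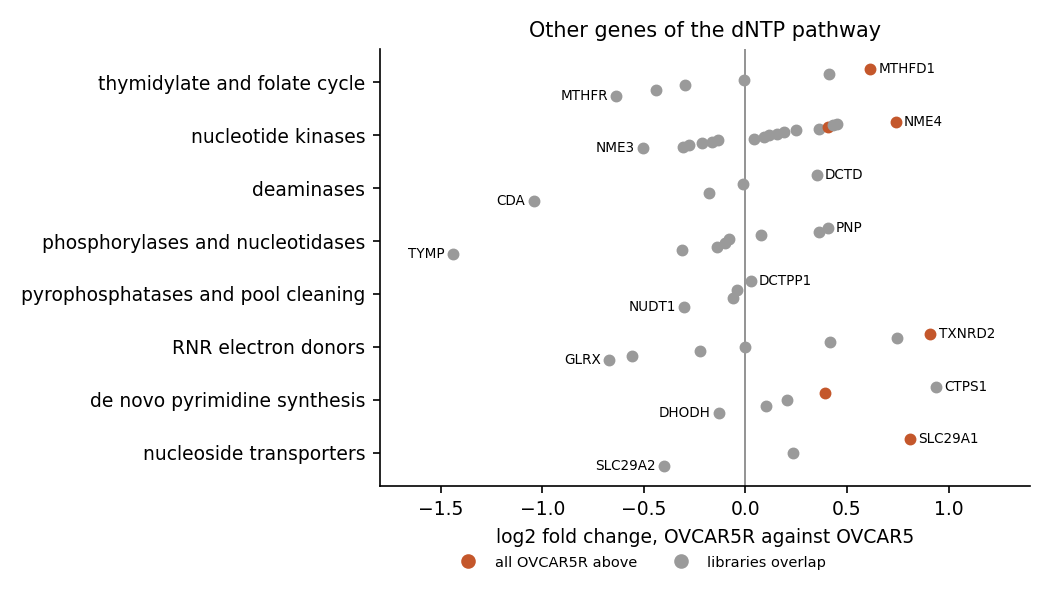
Log2 fold change of OVCAR5R against OVCAR5 for tested genes of dNTP metabolism outside the 9 enzymes, in 8 groups by role (1 point a gene, extremes named). Orange marks genes with all OVCAR5R libraries above all OVCAR5 libraries, and grey an overlap. Each group spans 0, from TYMP at -1.44 to CTPS1 at 0.94.

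Gemcitabine must enter the cell, be phosphorylated by DCK, CMPK1, and NME1, and escape deamination by CDA and DCTD. Of 15 genes for its uptake and metabolism, 13 were tested, SLC28A1 and SLC28A3 not being listed. Adjusted p under 0.05 (limma) was reached by 0, beside 0.119% of all genes. Unadjusted p under 0.05 was reached by 1, SLC29A1, in the higher direction, where 4.14% of all genes were. Without OVCAR5 replicate 2 it was reached by 0 (4.32% of all genes), and SLC29A1 was at 0.59. The main importer SLC29A1 had values of 51.9, 44.7, and 97.2 in OVCAR5 and 106, 112, and 104 in OVCAR5R, without overlap and with little spread in OVCAR5R (log2 fold change 0.81, standard error 0.30, limma adjusted p = 0.401). The second transporter SLC29A2 was at 22.1 ± 11.1 (OVCAR5) and 15.4 ± 3.64 (OVCAR5R), each ± SD over n = 3. Of the kinases after DCK, CMPK1 had a log2 fold change of 0.19 and NME1 of 0.45, both with overlap. CDA, the deaminase that inactivates gemcitabine, was low throughout, at 4.19, 19.4, and 5.88 in OVCAR5 and 5.54, 3.57, and 1.79 in OVCAR5R. The deaminase DCTD was at 0.35, and the nucleotidases NT5C, NT5C2, and NT5C3A at -0.08, -0.10, and -0.31, again with overlap. The median over the 13 genes was 0.19, with 7 higher and 6 lower, and 0.11 without OVCAR5 replicate 2.

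Since RRM1, RRM2, TYMS, and TK1 are made mainly in S phase, 38 other S phase genes were read beside them. Of these, 0 were called (limma adjusted p under 0.05), beside 0.119% of all genes. At an unadjusted p under 0.05, 5 were higher (CCNE1, CHAF1B, DSCC1, UNG, and EXO1) and 0 lower, beside 4.14% and 6.25% of all genes. Without OVCAR5 replicate 2 the unadjusted counts were 2 higher (DSCC1 and UNG) and 2 lower (CDC45 and GINS4), beside 4.32% and 6.52% of all genes. Mean levels were higher for 26 and lower for 12, with a median log2 fold change of 0.21, and 0.14 without OVCAR5 replicate 2. The highest were DSCC1, a clamp loader subunit (0.91), CLSPN, the adaptor claspin that activates CHK1 (0.77), and EXO1, an exonuclease (0.77). The lowest were CDC45, with 74.97, 57.7, and 112 in OVCAR5 and 21.7, 23.9, and 82.0 in OVCAR5R (-1.14), GINS4 (-1.07), and MCM5 (-0.89), all of the replicative helicase. By library, the median of the 38 relative to the OVCAR5 mean was -0.16, -0.11, and 0.33 in OVCAR5 and 0.21, 0.28, and 0.10 in OVCAR5R. That of the 9 enzymes was -0.05, -0.26, and 0.15 in OVCAR5 and 0.56, 0.18, and 0.23 in OVCAR5R. OVCAR5 replicate 3 was thus the highest library of the S phase genes and the highest OVCAR5 library of the enzymes. The share of cells in S phase was not measured in these libraries.

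Of 16 regulators of RNR genes and protein, 0 were called at an adjusted p under 0.05 (limma), 0 at an unadjusted p under 0.05, and 0 were without overlap. Of all genes, 0.119% were called, and 4.14% were higher and 6.25% lower at an unadjusted p under 0.05. Wholly above lay 8.4% of all genes, and wholly below 8.18%. E2F1, the activator of S phase genes, was at 72.2 ± 9.06 (OVCAR5) and 77.0 ± 0.60 (OVCAR5R), each ± SD over n = 3. E2F2, E2F3, E2F7, and E2F8 had log2 fold changes of 0.17, 0.30, 0.29, and 0.10, and E2F4 of -0.41. CCNF, the cyclin that marks RRM2 for degradation in G2, was at 0.32, and FZR1 and CDC20, activators of the anaphase-promoting complex, were at -0.08 and 0.44. The cyclin-dependent kinase inhibitor gene CDKN1A and the ubiquitin ligase gene MDM2 were at -0.10 and 0.05. The checkpoint kinases CHEK1, the target of Prex, ATR, ATM, and CHEK2 were at 0.27, 0.27, 0.03, and -0.18. The median over the 16 was 0.10, and -0.02 without OVCAR5 replicate 2. Without that library E2F7 was at -0.23 and lay wholly below, as 13.7% of all genes did. ATM was then at -0.31, CDKN1A at 0.24, and CHEK1 at 0.07, again with 0 calls (0.246% of all genes).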

How the data were processed

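RNA-seq of 3 OVCAR5 and 3 OVCAR5R cultures was used as the authors deposited it, in 1 table with 12309 rows (12308 different, 12305 symbols). The deposited unit is a linear normalized signal, which the study's methods call quartile normalized. The submitters' processing notes name the build hg38. The aligner, counter, annotation, and gene filter are not given in the sources used here. Within a library the signal moved in steps of 1 estimated read (64.7 to 68.7% of values under 3000 reads were whole multiples within 0.01), which gives the depths but no plain counts. The main test was therefore not a count test, and voom on the estimated reads was run as an alternative. Precision was set mainly by the spread between cultures.

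Values were taken as log2(value + 1), a scale that understates changes of low genes. Genes reaching 1 in 3 or more libraries (11766) were tested by limma 3.58.1 in R 4.3.3 (trend, two-sided, Benjamini-Hochberg over all genes at 0.05). The same fit was tested on simulated data with planted changes, and it recovered large ones but not ones as small as those of the 9 enzymes. Single genes and ratios had two-sided exact permutation tests (scipy 1.17.1), and plots were drawn with matplotlib 3.10.9 in Python 3.11.15. Positions and principal transcript lengths came from GENCODE release 29, where 99.4% of rows were found by symbol, and promoters from RefSeq. The members and lists were chosen with earlier results of these data known. From OVCAR5 and OVCAR5R RNA-seq the study reported pyrimidine metabolism and DNA replication among the gene sets enriched in OVCAR5R. That is a measure of whole gene sets, which was not computed here and differs from the tests of single genes. The genes named are the 9 enzymes, all gemcitabine genes and RNR regulators, the 3 highest and 3 lowest of the other pathway and S phase lists (none was called), and the 5 most alike of RRM1, RRM2, and TYMS. MTHFD1, TXNRD1, NME2, NT5C3B, SLC29A3, AK4, CCNE1, CHAF1B, UNG, and the genes around DCK were chosen for mention with their values in view. The alternatives were 3 scalings, another pseudocount, 2 filters, no trend, voom, a replicate block, and leaving out each library. Same-numbered cultures did not deviate together. Some genes that these rules name are not reported here.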

Additional observations from a re-analysis of the deposited data

How the results depend on the processing

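The 9 enzymes, each under 15 alternatives, gave 135 log2 fold changes, of which 129 kept their direction, 6 reversed, and 0 passed the threshold (smallest limma adjusted p of 0.248). The reversals all came from leaving out 1 library. DUT ran from -0.12 (without OVCAR5R replicate 2; -0.08 without OVCAR5 replicate 1) to 0.22, TK1 from -0.11 (without OVCAR5 replicate 1) to 0.36, RRM2B from -0.0094 (without OVCAR5 replicate 2) to 0.55, DCK from -0.084 (without OVCAR5R replicate 1) to 0.91, and SAMHD1 from -0.22 to 0.033 (without OVCAR5R replicate 2). The cause was not tested. TK2 was lower and without overlap under all 15. Voom and the other alternatives called 0 of the other pathway, gemcitabine, and S phase genes as well. The count of enzymes with no overlap, 1 with all libraries, was 2 under quantile normalization, equal sums, and voom, where RRM1 joined TK2, and 2 to 4 when a library was left out. The shares of all genes moved too. With all libraries 8.4% lay wholly above and 8.18% wholly below. Under quantile normalization, equal sums, and voom, 10.9% to 11.6% lay above and 5.99% to 6.92% below. With a library left out, 12.1% to 16.8% lay above and 12.1% to 16.4% below. The median of the enzymes was 0.10 without OVCAR5R replicate 1 and 0.46 without OVCAR5 replicate 1. Over all genes, the 14 calls became 0 under voom, 5 with the replicate block, and 0 (without OVCAR5R replicate 3) to 29 (without OVCAR5 replicate 2) when a library was left out, with 3 without OVCAR5 replicate 1, 4 without OVCAR5R replicate 1, and 2 without OVCAR5R replicate 2. The replicate numbers did not pair the cultures (correlations of deviations -0.00, 0.18, and -0.12 for replicates 1, 2, and 3), and the block called 0 of the 9 enzymes. With 3 cultures a side, changes of the size seen for RRM1, RRM2, and TYMS have 95% intervals that reach from below 0 to above 1, so their presence or absence was not resolved.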
